A study of Mus musculus with 12 samples.

Results

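Scp2, Sod2, Me3, Chd9, Rab34, Pepd, Tspan18, Tlcd1, Ergic1 and Adtrp are 10 mouse genes whose transcripts changed in proportion in interscapular brown adipose tissue of cold-treated mice. They are 10 of 54356 annotated genes with a matched transcript in these libraries, and 10 of the 7233 genes with at least 2 transcripts abundant enough for a test of transcript usage. They were chosen by the values described here, their transcript proportions in cold against control animals, so their differences between the groups are given as descriptions, without p-values. Each gene's transcripts were followed as estimated read counts and as a share, the percent that a transcript holds of the summed TPM (a length-corrected unit of abundance) of its gene in 1 animal.

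Polyadenylated RNA was sequenced from 12 male wild type C57BL/6N mice, 6 labelled ctrl and 6 labelled cold, with strand-specific libraries of 50 nt paired-end reads. The labels give an age of 20 weeks and describe single housing at 4 °C for 24 h, in a colony kept at 22 to 24 °C. The same treatment text accompanies the ctrl samples, and how they were housed is not described on its own, so single housing and cold cannot be told apart. A count of 3 animals appears in the series design where 6 per group are labelled, and the extraction text names another fat depot. No transgene, Cre line or drug is named, and the numbers that name the mice differ between the groups.

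Most mammalian genes give rise to several RNAs, through alternative promoters, alternative splicing, intron retention and alternative sites of cleavage and polyadenylation. A switch between them can exchange one protein for another, leave the protein unchanged while altering the untranslated ends, or move RNA between coding and non-coding forms, and introns that are retained often hold the RNA in the nucleus or introduce early stop codons. Brown adipose tissue burns fatty acids to make heat through uncoupling protein 1, and cold activates it through noradrenaline from sympathetic nerves.

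The libraries held 15.98 to 31.4 M estimated reads. Markers of brown adipocytes were abundant in both groups, with the summed level of the 10 listed markers at 10965 to 16522 CPM, a library-scaled count, in ctrl and 15714 to 19109 CPM in cold animals. Of these markers 4 rose in edgeR's quasi-likelihood gene test (p-values adjusted by Benjamini-Hochberg), among them Ppargc1a (log2 fold change 2.55 ± 0.16 SE, adjusted p = 3.08e-08) and Dio2 (1.86 ± 0.31, adjusted p = 0.000878), and Adipoq fell by 0.63 on the log2 scale (adjusted p = 0.000141). Ucp1, the defining marker, had 8629 ± 1588 CPM among ctrl and 10071 ± 769 CPM among cold animals (SD, n = 6 each) and did not pass that test (adjusted p = 0.135). The 12 skeletal muscle markers summed to 171 to 1616 CPM in ctrl and 209 to 4987 CPM in cold animals, highest in the cold library of mouse 15, and 0 of 12 passed the edgeR test in either direction. In the ctrl library of mouse 2, 55.2% of all TPM lay in transcripts with an effective length under 50 nt, against 2.36% to 8.41% in the others. Of 5 white adipocyte markers tested (Agt was under the filter on low counts) 1 rose, Npr3 (log2 fold change 2.34 ± 0.20 SE, edgeR adjusted p = 1.24e-06), and 0 fell. The median log2 fold change of the 5 was -0.05. The list summed to 106 to 269 CPM in ctrl and 440 to 633 CPM in cold animals, and each of the 5 had a mean above 0 in both groups. The 6 smooth muscle and pericyte markers summed to 441 to 548 CPM in ctrl and 332 to 413 CPM in cold animals, with groups apart, and 1 rose and 2 fell (2 rose without ctrl mouse 6, and 1 fell without ctrl mouse 5, ctrl mouse 10, cold mouse 7 or cold mouse 15). The 6 fibroblast and progenitor markers summed to 217 to 385 and 174 to 275 CPM, and 0 rose and 2 fell (1 fell without ctrl mouse 10 or cold mouse 4). Sums of macrophage, Schwann cell and lymphocyte markers overlapped between the groups, at 46.6 to 82.5, 94.6 to 167 and 2.26 to 6.18 CPM in ctrl and 54.3 to 80.3, 110 to 133 and 1.88 to 5.02 CPM in cold animals. The part of these differences in the members' shares was not tested. Without ctrl mouse 2 and cold mouse 15, all 20 changes of share of the transcripts that rose or fell most kept their direction. For the 10 rising and 6 falling transcripts whose groups did not overlap, leaving out animals could not have reversed it.

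The annotation (GENCODE M21, on the GRCm38 build) lists 89 transcripts for the 10 genes, of which 36 held a mean share of at least 5% in either group. Among those 36, 19 have a coding sequence and 17 have none. For 18 of the 36 the 6 ctrl and 6 cold shares did not overlap, 10 being higher and 8 lower in cold, where 1.73% of the 19672 transcripts of that abundance in all usage-tested genes were apart. All 10 genes were called in the usage test, in the contrast by which they were chosen, where 1.45% of the genes tested were called. Annotated genes that overlap a member include Podn on the strand of Scp2, at means of 14.7 CPM in ctrl and 8.99 CPM in cold animals, and Dusp1 opposite the start of Ergic1, at 58.0 and 79.1 CPM. No label or header says whether reads were assigned by strand. The test works on counts as edgeR's test for differential splicing, with each transcript compared with the rest of its gene.

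**Figure D1:**
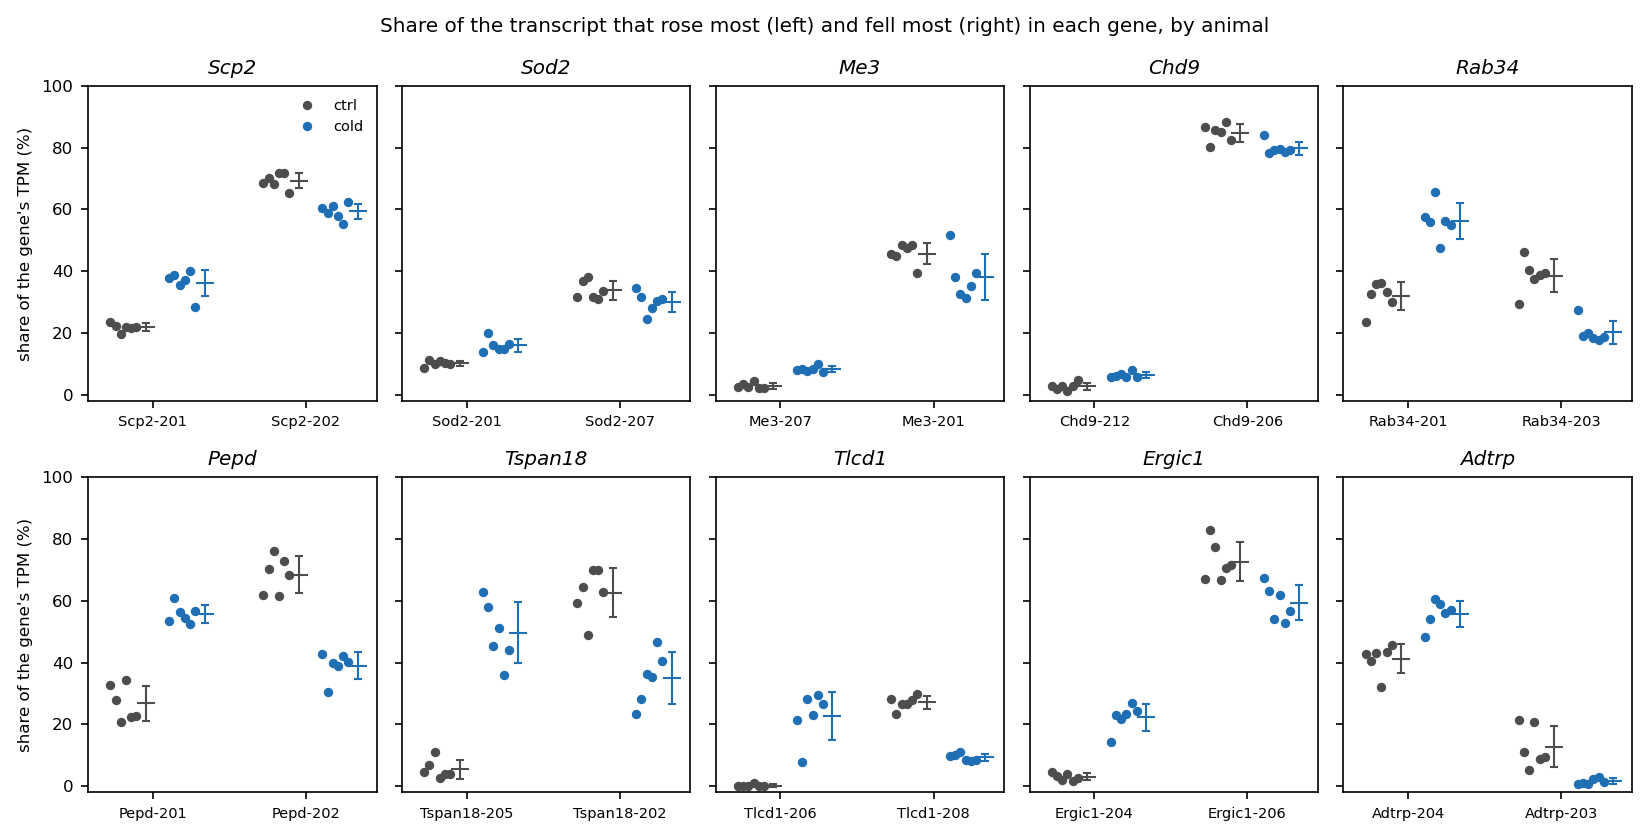
Share of the gene's summed TPM (percent, vertical axis) held by the transcript that rose most and the transcript that fell most in each of the 10 genes, with 1 point per animal (grey ctrl, blue cold, 6 each) and bars for mean ± SD. The rising transcripts of all 10 genes separate the groups, whereas the falling transcripts overlap in Sod2, Me3, Chd9 and Ergic1.

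Sequences that tell the members' transcripts apart are shown first. In Scp2, Rab34, Tlcd1 and Adtrp the transcripts that rose and fell most in share begin in different clusters of annotated starts, each of which holds a coding transcript, so windows around their RefSeq starts are given (GRCm38.p6, 250 bases before the start in lower case and the 50 bases from the start on in capitals, read along the gene). Of the 10 genes 9 have such a window, 13 windows in all, and Tspan18 has no entry. The windows for Rab34 lie on the plus strand at chr11:78188177-78188476 and chr11:78188498-78188797, next to each other, and those for Tlcd1 on the plus strand at chr11:78177880-78178179 and chr11:78178408-78178707, just upstream of the annotated start of Tlcd1-206. The window for Scp2 lies on the minus strand at chr4:108118498-108118797 and that for Adtrp-204 on the minus strand at chr13:41847567-41847866. Another Adtrp window, at the Adtrp-201 start, was searched but is not printed.
Rab34-201 start: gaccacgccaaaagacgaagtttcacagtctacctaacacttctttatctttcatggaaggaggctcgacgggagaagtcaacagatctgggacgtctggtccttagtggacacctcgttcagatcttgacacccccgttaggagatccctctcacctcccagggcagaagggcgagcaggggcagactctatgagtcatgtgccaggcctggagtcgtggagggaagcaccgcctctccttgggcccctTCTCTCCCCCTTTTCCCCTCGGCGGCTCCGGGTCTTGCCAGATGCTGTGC
Rab34-203 start: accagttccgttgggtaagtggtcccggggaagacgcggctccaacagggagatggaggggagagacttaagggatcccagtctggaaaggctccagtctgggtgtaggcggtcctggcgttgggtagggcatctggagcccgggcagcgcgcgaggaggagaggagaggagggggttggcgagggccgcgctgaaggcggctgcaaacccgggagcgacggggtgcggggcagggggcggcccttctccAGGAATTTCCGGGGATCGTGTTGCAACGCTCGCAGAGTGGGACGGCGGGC
Tlcd1-208 start: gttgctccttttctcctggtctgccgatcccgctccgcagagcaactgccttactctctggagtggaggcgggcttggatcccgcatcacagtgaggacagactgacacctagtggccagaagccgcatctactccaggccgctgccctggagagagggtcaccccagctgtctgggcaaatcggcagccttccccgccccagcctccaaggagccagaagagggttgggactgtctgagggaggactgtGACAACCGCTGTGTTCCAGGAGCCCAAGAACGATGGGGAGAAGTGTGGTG
Tlcd1-201 and Tlcd1-204 start: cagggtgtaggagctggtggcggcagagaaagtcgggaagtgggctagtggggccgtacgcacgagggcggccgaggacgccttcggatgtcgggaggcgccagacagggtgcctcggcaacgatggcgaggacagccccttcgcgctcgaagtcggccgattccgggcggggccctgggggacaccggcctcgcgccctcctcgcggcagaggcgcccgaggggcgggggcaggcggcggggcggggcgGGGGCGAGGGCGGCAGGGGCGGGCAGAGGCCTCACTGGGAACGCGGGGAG
Scp2-201 start: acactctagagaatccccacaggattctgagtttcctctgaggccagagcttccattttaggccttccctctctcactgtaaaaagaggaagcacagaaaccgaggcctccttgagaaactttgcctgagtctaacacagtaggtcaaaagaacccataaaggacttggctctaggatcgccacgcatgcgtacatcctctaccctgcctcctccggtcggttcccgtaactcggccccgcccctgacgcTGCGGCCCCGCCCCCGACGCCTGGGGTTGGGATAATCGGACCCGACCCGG
Adtrp-204 start: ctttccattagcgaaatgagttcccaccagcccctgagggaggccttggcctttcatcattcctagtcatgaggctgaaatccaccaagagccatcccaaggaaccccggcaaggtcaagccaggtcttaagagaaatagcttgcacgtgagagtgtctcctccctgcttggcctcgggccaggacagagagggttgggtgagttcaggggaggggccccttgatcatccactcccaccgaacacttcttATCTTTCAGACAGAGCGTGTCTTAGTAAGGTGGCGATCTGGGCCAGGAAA

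Both strands of the windows were searched for 3 motifs: the cAMP response element TGACGTCA, the estrogen-related receptor element TCAAGGTCA, and the DR1 element bound by nuclear receptor dimers, a direct repeat of AGGTCA with 1 base between the copies. None of the 13 windows of the members held any of them, and the 3 motifs were found in 1.79%, 0.423% and 0.0396% of the 32851 RefSeq windows of the mouse genome. The windows at the Rab34 starts were 58.0% G and C for Rab34-201 and 67.7% for Rab34-203, with 13 and 25 CpG pairs. The Tlcd1 window at the Tlcd1-208 start held 61.7% G and C. The one that contains the starts of Tlcd1-201 and Tlcd1-204 held 76.0%, and the median over all windows was 52.7%.

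Scp2 (chr4:108043839-108144998, minus strand) encodes sterol carrier protein x, a peroxisomal thiolase fused to a lipid transfer domain that acts in the breakdown of branched-chain acyl chains, and, from an internal start, the smaller sterol carrier protein 2 that holds the lipid transfer domain alone. In cold the long coding transcript Scp2-201 (2640 nt, 547 codons) gained share over the short coding transcript Scp2-202 (772 nt, 143 codons), whose annotated start lies 47113 nt further downstream. Scp2-201 held 19.8% to 23.6% of the gene's TPM in ctrl animals (median 22.0%) and 28.3% to 40.2% in cold animals (median 37.5%). Scp2-202 held 65.3% to 72.0% in ctrl (median 69.4%) and 55.4% to 62.5% in cold animals (median 59.7%). Every cold animal lay above every ctrl animal for the long transcript and below every ctrl animal for the short one, with the cold animal of mouse 16 nearest to the controls for both.

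The level of Scp2-201 was 345 ± 25.7 CPM in ctrl and 772 ± 98.1 CPM in cold animals (SD, n = 6 each; log2 fold change 1.16 ± 0.09 SE), while Scp2-202 stood at 294 ± 36.6 CPM and 338 ± 41.6 CPM, a log2 fold change of 0.20 ± 0.10. The gene as a whole had a log2 fold change of 0.72 ± 0.09, with 573 to 777 CPM in ctrl and 1025 to 1277 CPM in cold animals, which did not overlap. By estimated reads instead of TPM, Scp2-201 went from 51.5% to 68.2% of the gene. In tissue RNA, fewer cells of a type and less RNA per cell cannot be told apart, for this gene and those that follow. Only 0.81% of the 31-base words of Scp2-202 occur in no other Scp2 transcript. Of all its words 75.2% also occur in other genes, against 45.4% for Scp2-201. The pseudogene Scp2-ps2 on chromosome 9, which shares such words, was listed at a mean of 58.6 CPM in ctrl and 19.7 CPM in cold animals, and its part in the share of Scp2-202 was not tested. The junction below joins an exon found in the long transcript to the coding exon after it (minus strand, chr4 bases 108085155 and 108074463), and it occurs in no other annotated Scp2 transcript; capitals mark the bases after the junction.
Scp2-201 junction: ggctctgtccagaagGACAAGGTGGAACCC

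Rab34 (chr11:78188430-78192193, plus strand) encodes a small GTPase of the Golgi that acts in lysosome positioning and in the formation of primary cilia. The transcripts whose shares rose and fell most have the same coding sequence of 259 codons and the same end, Rab34-201 (1368 nt) and Rab34-203 (1685 nt), whose starts lie 349 nt apart. Rab34-201, from the upstream start, held 23.7% to 36.3% of the gene's TPM in ctrl (median 32.9%) and 47.7% to 65.8% in cold animals (median 56.1%). Rab34-203 held 29.2% to 46.1% in ctrl (median 39.1%) and 17.8% to 27.6% in cold animals (median 18.9%). The groups were apart for both transcripts, and the cold animal of mouse 4 stood well above the other cold animals for Rab34-203.

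Summed over transcripts whose starts cluster within 100 nt of their neighbours, the upstream Rab34 start went from 31.96% ± 4.65 to 56.4% ± 5.80 and the downstream start from 61.9% ± 6.18 to 37.5% ± 5.84 (SD, n = 6 each). The downstream sum includes Rab34-209, a coding transcript of 188 codons, at 23.3% ± 10.4 in ctrl and 17.1% ± 7.79 in cold animals, with overlapping groups. The level of Rab34-201 had a log2 fold change of 0.85 ± 0.12 (SE) and that of Rab34-203 fell by 0.88 ± 0.19 on the log2 scale. The gene's own level differed by 0.00 ± 0.12, with 81.9 ± 15.2 CPM in ctrl and 82.1 ± 10.9 CPM in cold animals (SD). The order of its starts by mean share reversed while the summed level did not move beyond its SE. In cold mouse 12 the order did not reverse, with 47.67% for the upstream and 47.78% for the downstream start. Only 2.91% of the 31-base words of Rab34-201 and 6.04% of those of Rab34-203 are unique to them, because the transcripts differ only in their leading exons. Rab34 lies 6521 nt downstream of Tlcd1 on the same strand.

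Adtrp (chr13:41763148-41847684, minus strand) encodes a membrane hydrolase that cleaves fatty acid esters of hydroxy fatty acids and was named for its regulation by androgen. Its level rose more than that of any other of the 10 genes, with 29.3 to 80.1 CPM in ctrl (median 49.6 CPM) and 173 to 198 CPM in cold animals (median 188 CPM), a log2 fold change of 1.76 ± 0.21 (SE). Adtrp-204 (1046 nt, 230 codons) held 32.3% to 45.8% of the TPM in ctrl (median 42.9%) and 48.3% to 60.5% in cold animals (median 56.6%). Adtrp-203 (659 nt, 167 codons), which starts 19163 nt further downstream, held 5.36% to 21.4% in ctrl (median 10.2%) and 0.828% to 2.99% in cold animals (median 1.15%). Neither share of TPM overlapped between the groups.

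The level of Adtrp-203 went from 3.69 ± 0.971 CPM to 1.496 ± 0.960 CPM (SD, n = 6 each), with overlapping groups, while Adtrp-204, Adtrp-201 and Adtrp-202 had log2 fold changes of 1.90 ± 0.26, 2.11 ± 0.20 and 2.03 ± 0.39 (SE). The latter 3 all begin near the upstream end of the gene. Adtrp-206, which has no coding sequence and starts far downstream of them, had a log2 fold change of 0.96 ± 0.35 that did not pass the transcript test, and it held 31.1% ± 6.34 of the TPM in ctrl and 22.2% ± 5.66 in cold animals (SD), with overlapping groups. By estimated reads the share of Adtrp-204 moved less, from 45.0% to 50.0%, and that of Adtrp-203 went from 7.78% to 0.789%. The counts behind Adtrp-203 were low, a mean of 72.7 reads per ctrl library and 31.4 per cold library.

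Pepd (chr7:34912379-35044708, plus strand) encodes prolidase, which splits dipeptides that end in proline or hydroxyproline, as released from collagen. Here the full coding transcript Pepd-201 (1881 nt, coding sequence of 1479 nt) and the transcript Pepd-202 (1043 nt, no coding sequence), a retained intron form at the 3′ end of the gene, exchanged the larger share of the TPM. Pepd-202 held 61.7% to 76.3% of the TPM in ctrl (median 69.3%) and 30.5% to 42.9% in cold animals (median 39.998%). Pepd-201 held 20.8% to 34.4% in ctrl (median 25.3%) and 52.4% to 60.9% in cold animals (median 55.5%). By TPM the retained intron form was the larger of the pair in all 6 ctrl animals, and the coding transcript in all 6 cold animals. By estimated reads the coding transcript was already the larger in 2 ctrl animals, mouse 2 (50.0% against 45.9%) and mouse 9 (52.5% against 44.7%).

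The level of Pepd-202 fell by 1.63 ± 0.21 (SE) on the log2 scale, from 31.03 ± 7.995 CPM to 10.0 ± 2.55 CPM (SD, n = 6 each), while that of Pepd-201 stood at 24.7 ± 2.56 CPM and 30.3 ± 4.41 CPM, with overlapping groups. The gene's summed level fell by 0.50 ± 0.11. All retained intron transcripts of Pepd together went from 72.6% ± 5.41 to 43.4% ± 3.79 of the TPM. The window below runs from the intron into the coding exon that follows (plus strand, chr7:35040656-35040685), with the exon in capitals, and among the Pepd transcripts it is found in Pepd-202 alone.
Pepd-202 intron into exon: ctccttaaaccacagGGGTCTGGTGGCCTG

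Ergic1 (chr17:26561489-26656934, plus strand) encodes a membrane protein that cycles between the endoplasmic reticulum and the Golgi. The gene's level rose in cold by 1.17 ± 0.12 (SE) on the log2 scale, from 88.7 to 150 CPM in ctrl animals to 218 to 283 CPM in cold animals. The retained intron transcript Ergic1-204 (3195 nt), which starts 62694 nt downstream of the main start and ends within the gene, held 1.55% to 4.68% of the TPM in ctrl (median 3.05%) and 14.2% to 26.8% in cold animals (median 23.4%). Coding Ergic1-206 (2754 nt, 290 codons) held 66.8% to 83.2% in ctrl (median 71.1%) and 52.9% to 67.5% in cold animals (median 59.4%). By share of TPM only the retained intron form separated the groups, since 1 cold animal, mouse 4, reached the lower ctrl values of Ergic1-206. By estimated reads Ergic1-206 was apart too, at 79.0% to 88.5% of the gene in ctrl and 55.4% to 69.3% in cold animals.

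In level both forms were higher in cold: Ergic1-204 had a log2 fold change of 3.84 ± 0.36 (SE), from 5.25 ± 2.71 CPM to 75.1 ± 17.3 CPM (SD, n = 6 each), and Ergic1-206 had one of 0.76 ± 0.11. All transcripts with a coding sequence together went from 95.0% ± 1.34 to 74.0% ± 1.96 of the gene's TPM, with groups apart. The coding transcript Ergic1-210 (198 codons), with a start of its own, held 8.01% to 23.8% in ctrl (median 20.3%) and 0.00% to 12.8% in cold animals (median 4.43%), which overlapped. Most of Ergic1-204 is its own sequence, with 81.6% of its 31-base words in no other Ergic1 transcript, against 2.06% for Ergic1-206. Gm17218, annotated on the opposite strand over the start of Ergic1-204, was near zero in both groups at means of 0.0577 and 0.0494 CPM. The window below runs from a coding exon into the retained intron (plus strand, chr17:26641690-26641719), with the intron in capitals.
Ergic1-204 exon into intron: aggttcatcaccacaGTAAGTACCCAGGGC

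Tlcd1 (chr11:78176711-78181909, plus strand) encodes a TLC domain protein of the plasma membrane linked to membrane phospholipid composition. A retained intron transcript, Tlcd1-206 (564 nt), was all but absent in ctrl and present in every cold animal. It had no reads in 5 of 6 ctrl libraries, which allows at most 0.106% to 0.175% of the gene's reads there (3 reads, counting error only), 6 estimated reads in the other, mouse 9, and 35 to 196 reads in the 6 cold libraries. Its share was 0.00% to 0.991% of the TPM in ctrl and 7.94% to 29.5% in cold animals (median 24.8%), lowest in the cold animal of mouse 7. The short coding transcript Tlcd1-208 (457 nt, 103 codons) held 23.4% to 29.7% in ctrl (median 27.3%) and 8.26% to 10.9% in cold animals (median 9.16%). Both transcripts separated the groups, in opposite directions.

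Among the other Tlcd1 transcripts, coding Tlcd1-204 (247 codons) held 33.3% ± 2.46 in ctrl and 40.6% ± 5.52 in cold animals, with overlapping groups, and the retained intron transcript Tlcd1-205 went from 16.8% ± 1.68 to 10.8% ± 1.73, with groups apart. The 2 retained intron transcripts thus moved in opposite directions. By estimated reads Tlcd1-204 was apart, at 32.1% to 41.5% of the gene in ctrl and 42.7% to 53.1% in cold animals. Summed by start, the cluster of Tlcd1-201, Tlcd1-204 and Tlcd1-206 went from 45.9% ± 2.09 to 72.7% ± 3.25, and that of Tlcd1-208 from 27.1% ± 2.16 to 9.34% ± 1.13 (SD, n = 6 each). Of the first cluster's rise of 26.8 points, 22.6 were those of non-coding Tlcd1-206. Coding Tlcd1-201 held 9.51% to 12.6% in ctrl and 5.95% to 9.79% in cold animals, with overlapping groups. By estimated reads that cluster went from 63.1% to 75.0% of the gene. The gene's level fell by 0.36 ± 0.08 (SE) on the log2 scale, from 108 ± 7.31 CPM to 84.2 ± 9.82 CPM. Tlcd1-206 and Tlcd1-208 are short, and of all Tlcd1 reads they took 7.20% and 2.10% in cold animals. Rpl23a, on the opposite strand at the 3′ end, stood at 298 and 289 CPM. The window below runs from a coding exon into the retained intron of Tlcd1-206 (plus strand, chr11:78179438-78179467), with the intron in capitals.
Tlcd1-206 exon into intron: tttgcttctctgcagGTAGGTTATGCCCAA

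Tspan18 (chr2:93201760-93334505, minus strand) encodes a tetraspanin known in endothelial cells as a partner of the store-operated calcium channel Orai1. The largest change of share in the 10 genes was that of Tspan18-205, a transcript of 809 nt without a coding sequence that starts 21972 nt downstream of the main start and ends 109503 nt short of the coding transcript. Tspan18-205 held 2.62% to 11.2% of the TPM in ctrl (median 4.19%) and 35.95% to 62.9% in cold animals (median 48.4%). The coding transcript Tspan18-202 (3751 nt, 248 codons) held 49.0% to 70.2% in ctrl (median 63.7%) and 23.2% to 46.8% in cold animals (median 35.9%). Tspan18-203, a second non-coding transcript, which shares the start of Tspan18-202 and the end of Tspan18-205, held 24.4% to 38.6% in ctrl (median 28.4%) and 11.8% to 16.9% in cold animals (median 13.3%). No cold animal overlapped a ctrl animal in any of these 3 shares of TPM. By estimated reads Tspan18-203 overlapped, at 3.48% to 7.36% of the gene in ctrl and 2.47% to 4.02% in cold animals.

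In level Tspan18-205 went from 2.74 ± 1.58 CPM to 30.3 ± 12.9 CPM (SD, n = 6 each; log2 fold change 3.45 ± 0.40 SE), and Tspan18-202 fell by 0.64 ± 0.12 on the log2 scale. Because Tspan18-205 is short, it took 1.23% of the gene's reads in ctrl and 16.4% in cold animals, far less than its share of TPM, and the coding transcript still held 78.0% of the reads in cold animals. The share of the start used by Tspan18-202 and Tspan18-203 went from 94.3% ± 3.03 to 50.3% ± 9.89 of TPM. The sum over the gene fell by 0.43 ± 0.10 on the log2 scale. The 7 endothelial markers summed to 684 to 960 CPM in ctrl and 772 to 923 CPM in cold animals, and in edgeR's test with Benjamini-Hochberg adjustment 1 rose and 1 fell (3 and 1 without ctrl mouse 6, 2 and 1 without cold mouse 4). The junction below joins the initial exon of Tspan18-205 to an exon shared with the other transcripts (minus strand, chr2 bases 93312147 and 93312027), with the shared exon in capitals.
Tspan18-205 junction: gggagtccttgtctgAGTTGCCCCAAAGCT

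Sod2 (chr17:13006846-13040063, plus strand) encodes the manganese superoxide dismutase of the mitochondrial matrix. Its coding transcript Sod2-201 (5861 nt, 222 codons) held 8.60% to 11.3% of the TPM in ctrl (median 10.1%) and 13.7% to 20.0% in cold animals (median 15.5%), with groups apart. The non-coding Sod2-207 (1138 nt), which starts 367 nt downstream and ends 4518 nt upstream of it, held 30.9% to 38.2% in ctrl (median 32.6%) and 24.7% to 34.4% in cold animals (median 30.7%). The largest share belonged to the retained intron transcript Sod2-204 (644 nt) in both groups, at 55.3% ± 3.55 and 53.5% ± 3.92 (SD, n = 6 each). Of these, only the coding transcript separated the groups by share of TPM.

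The level of Sod2-201 had a log2 fold change of 0.78 ± 0.07 (SE), from 366 ± 30.6 CPM to 628 ± 48.1 CPM (SD), against 0.11 ± 0.12 for Sod2-204 and -0.04 ± 0.10 for Sod2-207. The gene's log2 fold change of 0.39 ± 0.07, from 754 to 845 CPM in ctrl to 973 to 1079 CPM in cold animals, lay between these values, and of the 3 described transcripts Sod2-201 alone was called in the transcript test. In reads, where length counts, Sod2-201 went from 46.2% to 59.4% of the gene. By this unit Sod2-207 went from 29.6% to 21.6%, and both transcripts separated the groups. The junction below, from the exon of Sod2-207 to the next exon (plus strand, chr17 bases 13008433 and 13010520), tells the non-coding transcript from the coding one, with the next exon in capitals.
Sod2-207 junction: ggtggccggacggagGAGATGTTACAACTC

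Me3 (chr7:89632392-89854359, plus strand) encodes the mitochondrial malic enzyme that makes NADPH and pyruvate from malate. All 4 of its transcripts above a share of 5% are non-coding, and the 2 with a coding sequence held 3.41% ± 1.21 of the TPM in ctrl and 4.94% ± 1.12 in cold animals (SD, n = 6 each), with overlapping groups. Me3-207 (3036 nt), which begins near the upstream end of the gene, held 2.13% to 4.35% in ctrl (median 2.40%) and 7.27% to 9.97% in cold animals (median 8.18%). Me3-201 (1130 nt), which starts 196748 nt further downstream, held 39.5% to 48.4% in ctrl (median 46.5%) and 31.5% to 51.7% in cold animals (median 36.6%). Only Me3-207 separated the groups, and the cold animal of mouse 4 had the highest share of Me3-201 of all 12 animals.

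The Me3-207 level had a log2 fold change of 1.24 ± 0.22 (SE) on a mean of 45.6 reads per ctrl library and 114 per cold library. The gene's level fell by 0.23 ± 0.08, and that of the retained intron transcript Me3-203 by 0.59 ± 0.13. Of the sequence of Me3-207, 93.2% of the 31-base words occur in no other Me3 transcript. The junction below leads into the exon that the other transcripts lack (plus strand, chr7 bases 89633093 and 89639191), with that exon in capitals.
Me3-207 junction: ccccatctcaacaagACACAGATTAGAGCT

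Chd9 (chr8:90828352-91054516, plus strand) encodes a chromodomain helicase that remodels chromatin. Its described transcripts all begin within a few bases of each other, and 3 short non-coding transcripts differ in the last exon to which a common exon is joined. Chd9-206 (759 nt) held 80.1% to 88.2% of the TPM in ctrl (median 85.5%) and 78.4% to 84.1% in cold animals (median 79.3%). Chd9-212 (728 nt) held 1.20% to 4.81% in ctrl (median 2.83%) and 5.68% to 7.94% in cold animals (median 6.01%), and Chd9-211 went from 3.55% ± 1.65 to 7.16% ± 1.69 (SD, n = 6 each). By share of TPM Chd9-212 was apart between the groups, while Chd9-206 and Chd9-211 overlapped. By estimated reads Chd9-211 was apart too, at 0.427% to 1.84% of the gene in ctrl and 2.28% to 3.89% in cold animals.

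The direction for Chd9-206 depended on the unit: its share of TPM fell by 4.85 points, but it gained 7.18 points as a share of the gene's reads, from 39.7% to 46.9%. Its level had a log2 fold change of 0.37 ± 0.09 (SE), that of Chd9-212 was 1.67 ± 0.29, and that of the coding transcript Chd9-202 (11565 nt, 2885 codons) was -0.09 ± 0.09. Chd9-202 held 45.1% of the gene's reads in ctrl and 38.9% in cold animals, but 5.03% and 3.51% of its TPM, since it is far longer than the rest. All 3 non-coding transcripts were thus higher in level in cold while the coding transcript was not. The reads behind Chd9-212 were few, 9.61 per ctrl library and 33.3 per cold library on average, and 48.3% of the 31-base words of Chd9-206 also occur in other genes. The 3 junctions below leave the same exon at chr8 base 90849759 on the plus strand, and the capitals mark the last exon of each transcript; the junction of Chd9-212 is also found in Chd9-215.
Chd9-206 junction: acctcttcctctcagCTCACTTACAGGCCC
Chd9-211 junction: acctcttcctctcagGTCTTCTGGAGAAAC
Chd9-212 junction: acctcttcctctcagTGCACCAAGTGGATG

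The levels of the 10 genes did not share a direction. In edgeR's gene test 8 of the 10 were called, where 31.6% of the 13876 genes tested were called in either direction. Of the members 4 were called higher in cold (Scp2, Sod2, Ergic1 and Adtrp), where 16.2% of all genes were called higher, and 4 were called lower (Me3, Pepd, Tspan18 and Tlcd1), where 15.4% were. Chd9 (log2 fold change 0.10 ± 0.07 SE) and Rab34 were not called. The CPM of 5 members, Scp2, Sod2, Tlcd1, Ergic1 and Adtrp, did not overlap between the groups, as for 16.3% of all genes. These shares are given as background only, since the members were chosen on the same cold and ctrl libraries, and nothing is read from the members' counts. The same holds for the transcript test, whose values chose the members: of the 36 described transcripts 23 were called, where 10.3% of the 30345 tested were called in either direction: 14 higher, where 6.21% were, and 9 lower, where 4.06% were. On the log2 fold change scale the transcript whose share rose most lay above its gene, and the one whose share fell most below it, in 9 of the 10 genes. In Chd9 both lay above the gene. Both transcripts had a positive log2 fold change in Scp2, Chd9 and Ergic1, and in the other 7 genes the transcript with the falling share had a negative one, which for Sod2-207 was within its SE and for Me3-201 and Adtrp-203 did not pass the test.

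**Figure D2:**
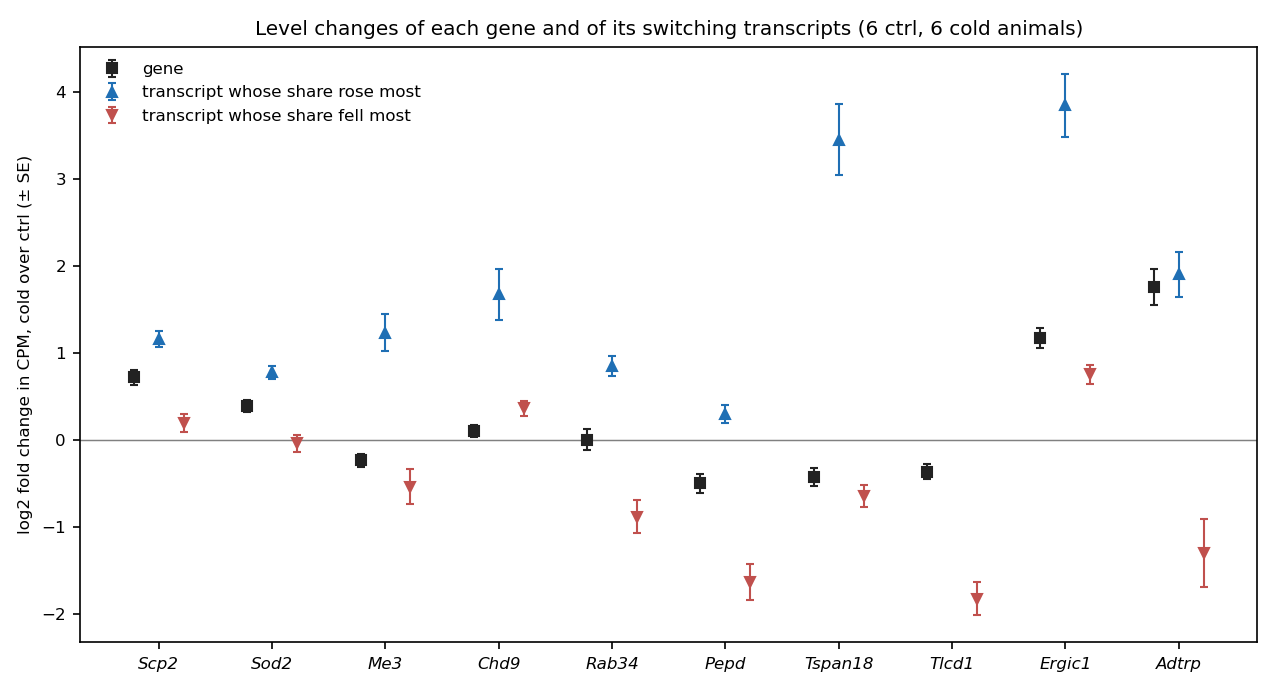
Log2 fold change in CPM, cold over ctrl, with SE bars (6 animals per group) for each gene (squares), the transcript whose share rose most (blue triangles) and the one whose share fell most (red triangles). Tlcd1-206 is left out because it had no reads in 5 of 6 ctrl libraries; the other rising transcripts lie between 0.30 for Pepd-201 and 3.84 for Ergic1-204.

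By annotation, the rising and falling transcript had starts more than 100 nt apart in 9 of 10 genes (all but Chd9), where 64.2% of the 7233 tested genes and 65.7% of the 105 called ones had such a pair. Their ends lay more than 100 nt apart in 7 of 10 genes, against 71.7% of the genes tested and 61.9% of those called. The rising transcript was the longer of the pair in 7 of 10 genes, against 58.2% and 57.1%. In 3 members (Tspan18, Tlcd1 and Ergic1) the falling transcript had a coding sequence and the rising one had none, a pattern of 11.8% of the genes tested and 11.4% of those called. Sod2 and Pepd had the opposite pattern, as did 27.5% and 20.0%. In Scp2 and Adtrp both were coding with different coding sequences, in Rab34 the coding sequence was the same, and in Me3 and Chd9 neither was coding. The retained intron form rose in Tlcd1 and Ergic1 and fell in Pepd.

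Because TPM corrects for length and reads do not, the size of a change depended on the unit for short transcripts. As a share of reads the change was 15.2 points for Tspan18-205 (44.2 points by TPM), 7.15 for Tlcd1-206 (22.6 by TPM) and -3.82 for Tlcd1-208 (-17.8 by TPM). It was larger by reads for some longer transcripts, at 13.2 points for Sod2-201 (5.81 by TPM), -25.7 points for Rab34-203 (-18.3 by TPM) and -21.8 points for Ergic1-206 (-13.4 by TPM). Of the 20 transcripts 19 kept their direction, with Chd9-206 as the exception, in the plot of the 3 units.

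**Figure D3:**
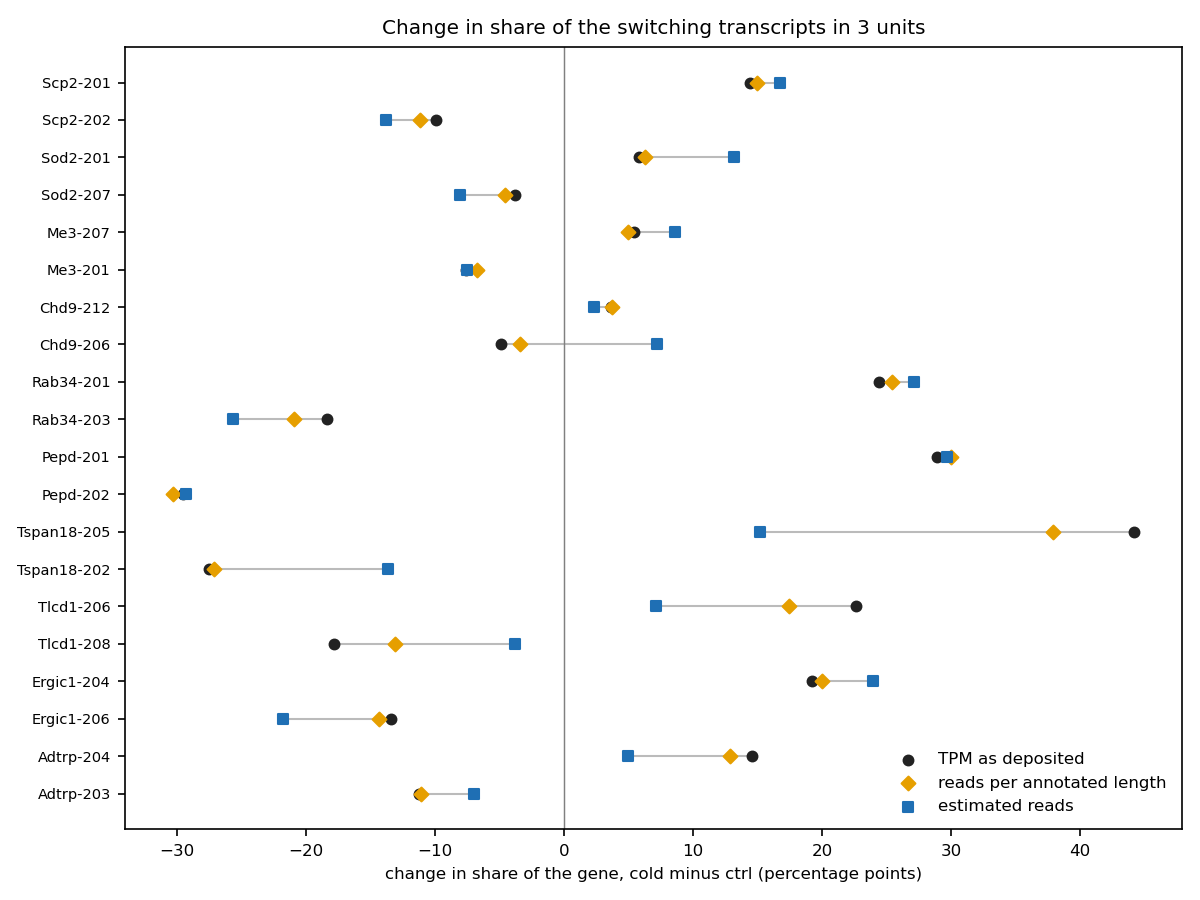
Change in share of the gene (percentage points, cold minus ctrl) of the rising and falling transcript of each gene, by deposited TPM (black circles), reads divided by annotated length (orange diamonds) and estimated reads (blue squares). The units nearly coincide for Pepd-201 (28.9 points by TPM, 29.7 by reads) and lie far apart for Tspan18-205, and Chd9-206 crosses zero.

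Genes of the machinery that makes and degrades alternative transcripts were read beside the members, with edgeR's quasi-likelihood test and Benjamini-Hochberg adjustment over all genes. Of 44 splicing regulators 9 rose and 7 fell, led by Khdrbs3, an RNA-binding splicing factor (log2 fold change 0.55 ± 0.08 SE, adjusted p = 7.19e-05), and Cirbp, the cold-inducible RNA-binding protein, which fell by 0.61 ± 0.10 (adjusted p = 0.000213). The split was 12 and 2 when scaled by library totals, and 5 and 4 without the libraries of ctrl mouse 2 and cold mouse 15. Among 20 cleavage and polyadenylation factors 4 rose and 3 fell, with Sympk, a scaffold of the cleavage complex, at 0.60 ± 0.08 (adjusted p = 1.94e-05) and Pabpn1, the nuclear poly(A)-binding protein, at -0.49 ± 0.08 (adjusted p = 0.00019). Of 14 nonsense-mediated decay factors 3 rose and 1 fell, with Smg5 at 0.42 ± 0.08 and Upf2 at 0.34 ± 0.07 (adjusted p = 0.00069 and 0.00132). In these lists 1 gene, the splicing kinase Clk1, passed the usage test (adjusted p = 0.0289), with Clk1-201 at 23.4% ± 8.97 in ctrl and 41.3% ± 7.45 in cold animals (SD, n = 6 each) and overlapping groups. That call rests on few animals: of the 12 fits that each left out 1 animal Clk1 passed in 1, the one without cold mouse 4, in which Hnrnpf, Mbnl1 and Cstf3 passed as well, and it did not pass without both ctrl mouse 2 and cold mouse 15. Cstf3, a cleavage factor, passed in 5 of these 12 fits.

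Lists built around the members' functions gave the following counts. ER to Golgi transport, the setting of Ergic1, had 11 of 20 genes higher in cold and 0 lower in edgeR's test (8 and 0 without the libraries of ctrl mouse 2 and cold mouse 15), led by the coat components Sar1b and Sec31a at 0.61 ± 0.08 and 0.60 ± 0.09 (adjusted p = 3.04e-05 and 6.73e-05). Lman2, a cargo receptor of that pathway, passed the edgeR usage test as well (adjusted p = 6e-05, and in each of the 12 fits without 1 animal). Coding Lman2-201 stood at 87.6% ± 3.41 in ctrl and 94.0% ± 0.932 in cold animals (SD, n = 6 each), groups apart. On simulated counts that test called unchanged genes too often when the spread differed among transcripts of a gene. Peroxisomal side chain oxidation, the setting of the long Scp2 protein, had 6 of 13 higher and 1 lower (7 and 3 without cold mouse 4), with the import receptor Pex7 at 0.49 ± 0.07 and the transporter Abcd2 at -1.82 ± 0.18 (adjusted p = 4.94e-05 and 5.43e-06). Proline metabolism, around Pepd, had 7 of 12 higher and 1 lower, with Prodh, which oxidises proline, at 1.03 ± 0.13 and P4ha2, a prolyl hydroxylase, at 0.79 ± 0.11 (adjusted p = 2.52e-05 and 4.49e-05).

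The remaining lists were read with the same edgeR test. Antioxidant genes around Sod2 split into 4 higher and 5 lower of 17 (6 and 3 by library totals), with Txnrd1 at 0.72 ± 0.06 and Txn2 at 0.60 ± 0.10 (adjusted p = 3.02e-07 and 0.000203). Txnrd1 is a thioredoxin reductase and Txn2 a thioredoxin, and of the same system Txn1 (-0.42 ± 0.11), Txnrd2 (-0.27 ± 0.09) and Prdx2 (-0.33 ± 0.10) fell (edgeR adjusted p = 0.00836, 0.0259 and 0.0222). Without ctrl mouse 2, cold mouse 11 or cold mouse 15 3 antioxidant genes fell in place of 5. NADPH supply around Me3 split into 3 and 4 of 12, with the cytosolic malic enzyme Me1 at -1.22 ± 0.17 and Mthfd1 at 0.66 ± 0.10 (adjusted p = 8.94e-05 and 9.73e-05). Of 8 CHD remodellers 1 rose and 3 fell (3 and 3 without cold mouse 4), with Chd4 at -0.64 ± 0.09 and Chd5 at -1.50 ± 0.32 (adjusted p = 3.41e-05 and 0.00185). Of 12 Rab GTPases and partners 4 rose and 1 fell (2 and 0 without the libraries of ctrl mouse 2 and cold mouse 15; 0 fell without any 1 of ctrl mice 2, 5, 6, 9 and 10 or cold mice 7, 11, 12 and 15), with Rab7 at 0.34 ± 0.06 and Rab11a at 0.34 ± 0.08 (adjusted p = 0.000457 and 0.00469). Tetraspanins and calcium entry genes split into 3 and 5 of 18, with Cd82 at 0.69 ± 0.10 and Tspan17 at -0.87 ± 0.13 (adjusted p = 4.74e-05 and 6.89e-05). Of 13 TLC domain and ceramide genes 0 rose and 4 fell, with Cers5 at -0.40 ± 0.09 and Adipor2 at -0.30 ± 0.08 (adjusted p = 0.00305 and 0.00786). Lipid ester hydrolases split into 2 and 1 of 8 (2 and 2 without ctrl mouse 9), with Ces1f at -1.62 ± 0.11 and Aig1, which acts on the same lipids as Adtrp, at 1.03 ± 0.11 (adjusted p = 3.08e-08 and 4.21e-06). Over all 13876 genes 2246 rose and 2134 fell, or 2895 and 1409 when scaled by library totals.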

How the data were processed

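RNA of 6 ctrl and 6 cold animals was sequenced, and the authors quantified each library with Salmon after bcl2fastq and cutadapt, on GRCm38, per the submitters' processing notes; versions, the annotation release and strand settings are not given in the sources used here. The deposited values are estimated counts per transcript and TPM, as the file headers name them, and depth was 15.98 to 31.4 M estimated reads per library. Estimated counts split reads among transcripts that share sequence, so the share of a transcript with few unique 31-base words rests on few reads of its own.

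Transcript identifiers without version were matched to GENCODE M21: 140137 of 140658 matched, and the 521 others, with 0.0866% to 0.152% of a library's reads, were not used. Counts were rounded to whole numbers and tested with edgeR 4.0.16 in R 4.3.3 (TMM scaling, robust quasi-likelihood fits, filterByExpr with a minimum count of 10, all 12 animals, Benjamini-Hochberg adjustment, threshold 0.05) for genes, transcripts and, through diffSpliceDGE, usage. Log2 fold changes carry standard errors. The tests were tested on simulated counts, in which the usage test called unchanged genes too often when the spread differed among transcripts of a gene. CPM are scaled by TMM factors.

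The members and all lists were chosen with earlier results of these data known. Transcripts with a mean share of at least 5% in either group are described, and the switching pair is the largest rise and the largest fall in mean share. Of each pathway list, the genes with the 2 smallest adjusted p-values and any passing the usage test are named. Promoter windows are printed for members whose rising and falling transcripts begin in different clusters of starts, each holding a coding transcript. Alternatives were RLE size factors, library totals, other filters, DESeq2 1.42.0, limma 3.58.1 with voom, Simes adjustment, a skeletal muscle covariate, other units of share and leaving out animals. The skeletal muscle covariate for member levels and the omission of ctrl 2 with cold 15 were chosen after seeing the data.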

Additional observations from a re-analysis of the deposited data

Results flagged for a closer look

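In 92 groups of 6 animals (shares of the described transcripts, and gene levels), 12 held a value set far from the other 5, where chance marks about 1 in 20 groups. The cold animal of mouse 4, the deepest library, accounted for 5 of them: a share of 15.9% for Me3-203 (others 26.2% to 31.7%), 84.1% for Chd9-206 (others 78.4% to 79.5%), 2.62% for Chd9-202, 27.6% for Rab34-203 (others 17.8% to 19.9%), and 102 CPM for Rab34 (others 72.9 to 83.8 CPM). The cold animal of mouse 7 accounted for 3: shares of 30.5% for Pepd-202, 10.2% for Tlcd1-202 and 7.94% for Tlcd1-206 (others 21.4% to 29.5%). The remaining 4 were the ctrl animal of mouse 14 at 11.7% for Scp2-203, that of mouse 9 at 0.991% for Tlcd1-206 where the others were at 0, that of mouse 10 at 8.43% for Adtrp-202, and the cold animal of mouse 15 at 64.6 CPM for Tlcd1 (others 84.4 to 90.5 CPM).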

How the results depend on the processing

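The count of genes called for usage was the least stable result. It was 105 with the edgeR test, 16 with Simes adjustment, 540 without a filter, 226 with limma-voom, 55 without ctrl 2 and cold 15 together, and 63 to 229 when 1 animal was left out (229 without cold 4, 68 without cold 7, 69 without cold 12 and 63 without cold 16); without cold 4, 86 of the 105 were among the 229. Members called were 5 of 10 with Simes adjustment, 9 with a minimum count of 30 or no filter, and 10 under each omission of an animal and with the muscle covariate. Transcripts called numbered 3118, 2023 without a filter, 2019 without ctrl 2 and cold 15, and 2410 to 3641 with 1 animal left out; by library totals 2238 were higher and 929 lower, against 1885 and 1233. Genes called for level ranged from 3859 to 5086 with 1 animal left out. Chd9-206 gained 7.18 points by reads. Among protein-coding transcripts alone, Tspan18-202 rose by 0.12 points and Ergic1-206 by 11.97. Over all transcripts their shares fell, by 27.5 and 13.4 points, so the direction reversed. Their rising partners are non-coding and leave the denominator. The log2 fold change of the Rab34 level, 0.00, was -0.083 without ctrl 9, -0.065 without cold 4, -0.013 without ctrl 2 and -0.0090 without ctrl 14, within a range of -0.083 to 0.055 when 1 animal was left out. No paired analysis was possible because the mouse numbers differ between the groups. Few unique bases limit the shares of Scp2-202, Sod2-207, Ergic1-206, Adtrp-204 and both Rab34 forms, among others. Few reads limit the shares of Chd9-212, Adtrp-203 and Tlcd1-208.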
